A study of Rattus norvegicus with 288 samples.

Results

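The ribosome biogenesis factors described here are 42 genes whose proteins make, modify and assemble the ribosome in the nucleolus. They are a list of gene symbols grouped by function, drawn up with earlier results of these data known. Of the 42, 40 had a probe set that carried 1 gene symbol. Npm1 had only probe sets that carried several symbols, and Npm3 had no probe set in the annotation used, so neither was analysed here. In the tests, 40 members entered among 12310 genes in kidney, 40 among 11619 genes in liver and 39 among 11317 genes in heart, where the small subunit assembly factor Heatr1 was too dim.

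The samples were 288 single-colour expression arrays of kidney, heart and liver from male Sprague-Dawley rats 8 weeks old that carried a femoral vein cannula, the arrays forming 24 groups of 4 rats in each tissue. The study took all 3 tissues from each rat, so the arrays come from 96 rats. Results in different tissues are therefore not from separate animals. Every rat received an intravenous infusion over 30 min and, 30 min later, an oral dose by gavage. The infusion was either dextrose in water (D5W) or Oxaliplatin at 15 mg/kg, a platinum drug that cross-links DNA. The oral dose was water, the F68/PG/PEG400 vehicle (F68 below), Sunitinib at 5 mg/kg, or Sorafenib at 25 mg/kg. The controls were water for Sunitinib and F68 for Sorafenib. Sunitinib and Sorafenib are inhibitors of receptor tyrosine kinases. Tissues were taken at 1, 6 and 24 h. The left kidney, the heart apex with ventricles, and the left lateral and median liver lobes were used. Water and Sunitinib rats were dosed on another day than F68 and Sorafenib rats, so F68 and the dosing day cannot be told apart, and the Oxaliplatin difference was taken within water and within F68 and averaged, with 8 rats against 8. The tissues are mixtures of cell types, so a lower share of a cell type and less RNA per cell cannot be told apart in any result below.

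Ribosome production starts when RNA polymerase I transcribes the ribosomal DNA in the nucleolus. Small nucleolar ribonucleoproteins (snoRNPs) of the box C/D kind guide methylation of the precursor RNA and those of the box H/ACA kind guide its pseudouridylation. Separate sets of factors then fold and cut the precursor into the small and the large subunit, and the PeBoW complex (Pes1, Bop1 and Wdr12) acts in large subunit assembly. Ncl (nucleolin), Nolc1 and the helicase Ddx21 are abundant nucleolar proteins. Production of ribosomes takes a large share of a growing cell's energy, many of these genes are known targets of the transcription factor Myc, which binds the E-box CACGTG, and platinum drugs and other DNA-damaging agents are known to disturb the nucleolus. All of this is background and not a result of these arrays.

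Promoter sequences are shown for 5 members that carried the E-box and that were higher in kidney 6 h after Oxaliplatin. RefSeq windows of 250 bases before to 50 bases after the start of each gene (build GRCr8) were matched for 39 of the 42 members, all except Bop1, Wdr43 and Rrs1. CACGTG, which reads the same on both strands, was in 12 of the 39 windows (30.8%), against 6.65% of the windows of 27457 genes. It was in 9 of the 29 windows of members higher in kidney at 6 h and in 2 of the 8 windows of members not called there. GGGCGG or its reverse complement CCGCCC, the core of an Sp1 site, was in 24 of the 39 (61.5%), against 34.9% of all genes. GGAAGTG or CACTTCC, the core of an ETS factor site, was in 15 (38.5%), against 10.1%. The 27457 genes were all those with a window and were not limited to genes tested in these tissues. Matches of different motifs were counted separately and can share letters, and a match is a description of the sequence. The capitals below mark CACGTG. For the large subunit factor Gnl3 (chr16:6219783-6219862, minus strand), the large subunit factor Pes1 (chr14:83074266-83074345, plus strand) and the small subunit export factor Ltv1 (chr1:9398558-9398637, minus strand) the 80 bases before the start are shown, with the motif beginning at bases -25, -50 and -61. For the rRNA methyltransferase Nop2 (chr4:159618992-159619015, plus strand) and the small subunit GTPase-like factor Tsr1 (chr10:60258798-60258827, plus strand) the motif lay 38 and 20 bases after the start and is shown with the neighbouring bases, up to 12 on each side.
Gnl3: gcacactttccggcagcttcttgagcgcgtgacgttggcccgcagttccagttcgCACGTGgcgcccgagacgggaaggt
Pes1: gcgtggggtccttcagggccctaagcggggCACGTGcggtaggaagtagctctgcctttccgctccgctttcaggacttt
Ltv1: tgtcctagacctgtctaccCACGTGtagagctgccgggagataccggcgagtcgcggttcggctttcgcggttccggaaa
Nop2: cttccccaagtgCACGTGgagcgg
Tsr1: gtttactcggtgCACGTGggcagttagaat

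Each tissue carried its own markers. Their mean log2 level was 12.80 to 13.15 in kidney, 13.37 to 13.85 in heart and 14.17 to 14.51 in liver, and the markers of the other tissues reached at most 9.40. Before testing, 2 arrays of the 24 h D5W then Sorafenib groups (liver replicate 1 and kidney replicate 4) were left out because each carried the markers of the other organ (kidney markers at 12.99 on the array labelled liver, liver markers at 14.05 on the array labelled kidney), so those groups held 3 arrays. One kept kidney array of the same group, replicate 2, had liver markers at 9.40. Values are log2 RMA values, which rise by 1 for each doubling of signal. A gene is called higher or lower when limma gave an adjusted p under 0.05 with Benjamini-Hochberg adjustment over all genes tested in that comparison, and each log2 difference is given with its standard error.

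Oxaliplatin raised most ribosome biogenesis factors in kidney at 6 h. Of 40 members, 32 were higher and 0 were lower, with a median log2 difference over all 40 of 0.26. Over all 12310 genes 12.7% were called higher and the median was 0.01. All 3 polymerase I subunits, all 3 PeBoW members and all 3 measured abundant nucleolar proteins rose, as did 9 of 12 small subunit factors, 10 of 12 large subunit factors, 2 of 4 box C/D proteins and 2 of 3 box H/ACA proteins.

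The strongest evidence, by adjusted p, came from Noc2l, Nop2, Tsr1 and Nolc1. Noc2l, a nucleolar partner of pre-60S particles, had a lowest, median and highest value of 8.30, 8.38 and 8.49 in the 8 vehicle kidneys and of 8.59, 8.78 and 8.96 in the 8 Oxaliplatin kidneys at 6 h. Every Oxaliplatin kidney lay above every vehicle kidney, and the difference was 0.41 ± 0.04, a 1.33-fold rise (adjusted p = 4.18e-12 by limma). Nop2, which methylates the large rRNA, had 9.11, 9.29 and 9.35 against 9.43, 9.70 and 9.78, again without overlap, a 1.31-fold rise (adjusted p = 4.38e-12 by limma). Tsr1, which acts late in the maturation of the small subunit, had 9.55, 9.70 and 9.79 against 9.96, 10.16 and 10.25, a 1.34-fold rise (adjusted p = 1.77e-11 by limma). The 2 sets did not overlap for Tsr1 either. Nolc1, a phosphoprotein that chaperones snoRNPs, had 9.32, 9.47 and 9.61 against 9.62, 9.76 and 9.99, a 1.24-fold rise (adjusted p = 7.92e-09 by limma), where the highest vehicle kidney almost met the lowest Oxaliplatin kidney.

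**Figure D1:**
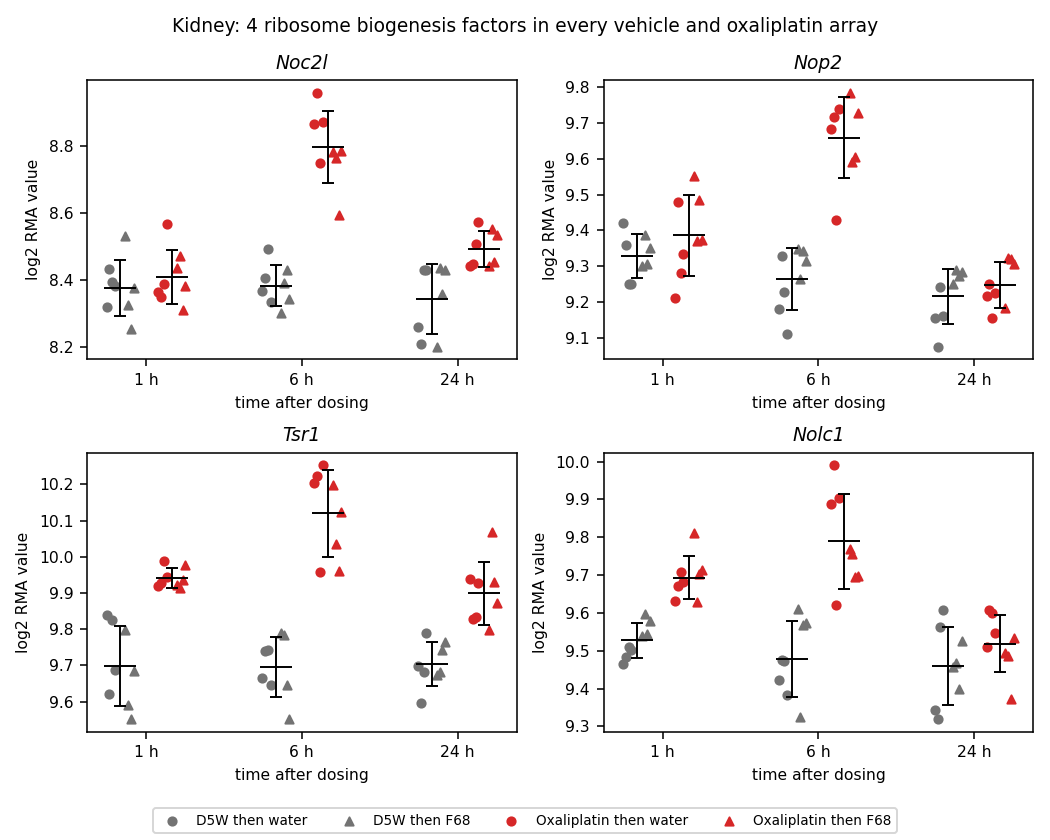
Log2 RMA value of Noc2l, Nop2, Tsr1 and Nolc1 (y axes, not starting at 0) in every kidney of rats given D5W (grey) or Oxaliplatin (red) and then water (circles) or F68 (triangles), by time after dosing (x axis). Bars give the mean and SD of 8 arrays, and at 6 h all 8 Oxaliplatin kidneys lay above all 8 vehicle kidneys for each gene.

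The largest difference in kidney at 6 h belonged to Ddx21, a helicase that binds polymerase I transcripts and snoRNAs. It had 9.18, 9.41 and 9.72 in vehicle kidneys and 9.79, 9.90 and 10.25 after Oxaliplatin, so the groups did not overlap and the level was 1.43-fold higher (0.52 ± 0.08). Among the box C/D proteins Nop56 rose by 0.40 ± 0.06 and Nop58 by 0.34 ± 0.05. The polymerase I subunit Polr1b rose by 0.35 ± 0.07, while its vehicle values, 7.29 to 8.15, reached into the Oxaliplatin range of 8.03 to 8.33. Gnl3 (nucleostemin) rose by 0.37 ± 0.06 and Ltv1 by 0.34 ± 0.06. Ncl moved from a median of 11.87 to 12.11 (0.26 ± 0.04). Rises were thus small in fold, from 0.14 ± 0.05 for the box H/ACA protein Nhp2 up to that of Ddx21.

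The 8 members not called in kidney at 6 h were Fbl, Dimt1, Rrp1b, Rrp9, Nip7, Dkc1, Emg1 and Ddx10. Fbl (fibrillarin), the box C/D methyltransferase, had a difference of 0.21 ± 0.20. With 1 array of the 1 h Oxaliplatin then Sunitinib kidneys, the one with the dimmest hybridization controls, left out of the shared spread, the Fbl difference was 0.21 ± 0.05 (adjusted p = 0.000342 by limma), which is a call, and 36 of the 40 members were called. Dkc1, the pseudouridine synthase of the box H/ACA particle, had 0.09 ± 0.05. Ddx10 was the sole member below 0 (-0.04 ± 0.06). Within the water rats alone, 32 members were called, and within the F68 rats alone 17. In kidney at 6 h macrophage markers were lower in 1 of 9 tested (summed as a mean level, 8.42 to 8.86 after Oxaliplatin against 8.57 to 9.33), endothelial markers in 1 of 7 and proliferating cell markers in 0 of 10. Their part in the result was not tested.

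At 1 h the kidney had fewer calls, with 0 of 3 polymerase I subunits and 0 of 3 PeBoW members among them. There 11 of 40 members were higher and 1 was lower, against 4.45% and 4.96% of all genes. Gnl3 was the most changed, from 10.14, 10.27 and 10.32 in vehicle kidneys to 10.50, 10.66 and 10.81 after Oxaliplatin, with no overlap (0.39 ± 0.06, 1.31-fold, adjusted p = 2.77e-06 by limma). The large subunit factors Rrs1 (0.34 ± 0.06) and Ppan (0.25 ± 0.04), the box C/D protein Nop58 (0.28 ± 0.05), the box H/ACA protein Gar1 (0.23 ± 0.05) and Nop56 (0.23 ± 0.06) rose as well. The remaining risers were Tsr1 (0.24 ± 0.05), Nolc1 (0.17 ± 0.04), Nip7, Wdr43 and Wdr74. Ddx10, a small subunit helicase, was the 1 that fell, with 8.86, 8.96 and 9.07 in vehicle kidneys against 8.60, 8.74 and 8.84 (-0.23 ± 0.06, adjusted p = 0.00289 by limma). Noc2l, first at 6 h, had 0.03 ± 0.04 at 1 h. Within water alone 6 members were called and within F68 alone 5.

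By 24 h the kidney calls had shrunk to 4 of 40 higher and 0 lower, against 5.61% of all genes called higher. The 4 were Tsr1 (0.20 ± 0.05), Bop1 (0.16 ± 0.05), Noc2l (0.15 ± 0.04) and the large subunit factor Wdr74 (0.13 ± 0.04). Tsr1 was called at all 3 times without overlap of the groups: at 1 h it ran from 9.92 to 9.99 against 9.55 to 9.84, and at 24 h from 9.80 to 10.07 against 9.60 to 9.79. The 24 h count moved with single arrays. It was 7 without the Oxaliplatin then F68 replicate 1, 2 without any 1 of Oxaliplatin then water replicates 2 and 4 and D5W then F68 replicate 2, and 11 with the dimmest 1 h array out of the shared spread, while within water it was 2 and within F68 0.

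**Figure D2:**
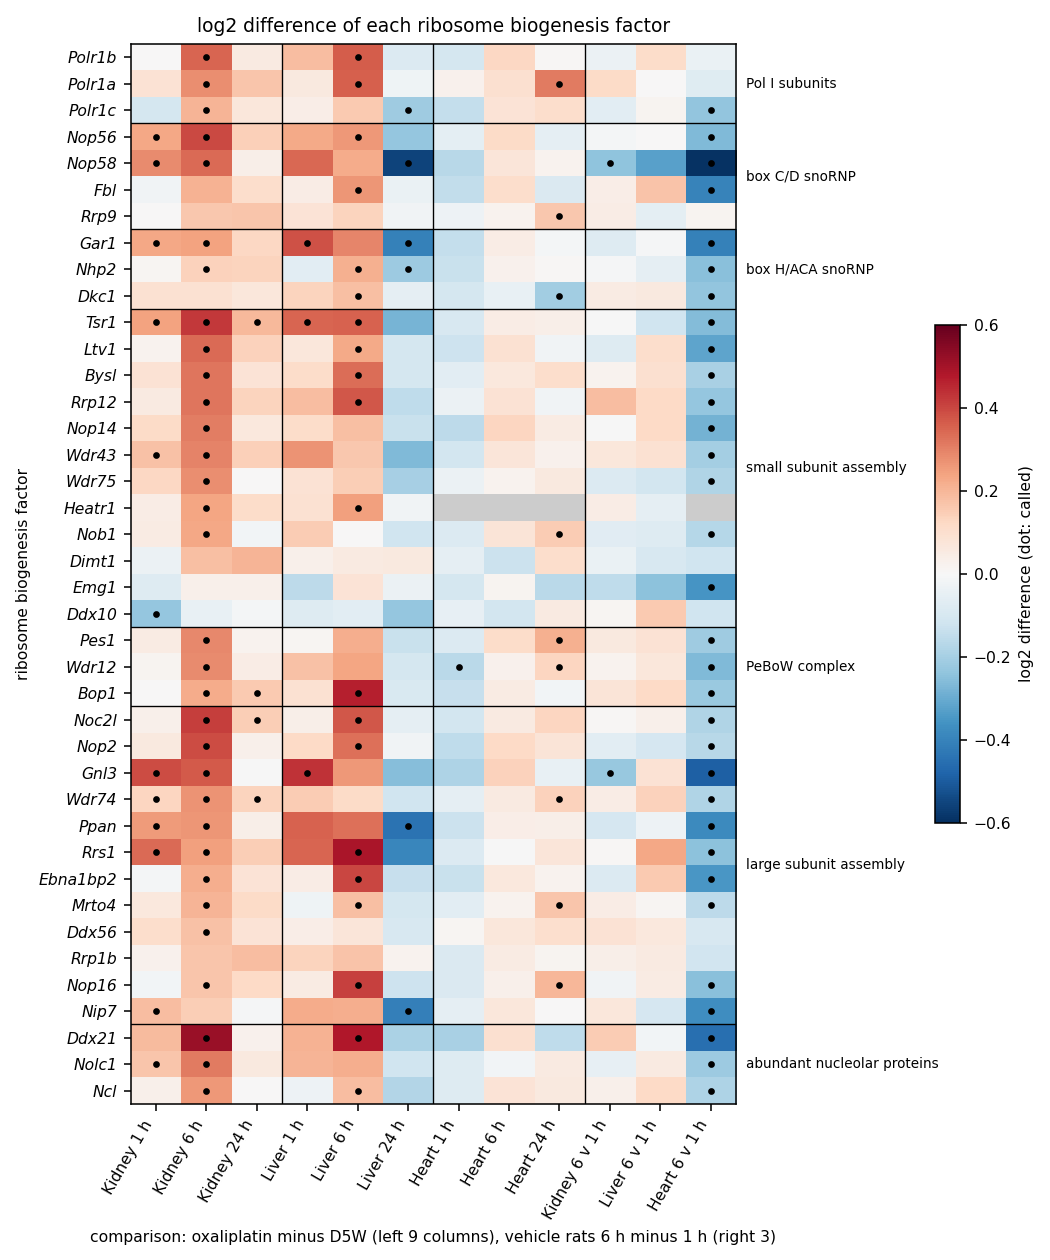
Log2 difference of every tested member (rows, grouped by role) for Oxaliplatin minus D5W in kidney, liver and heart at 1, 6 and 24 h (left 9 columns) and for vehicle rats at 6 h minus 1 h (right 3 columns). Red is higher, blue is lower, grey was not tested, and a dot marks an adjusted p under 0.05, which 32 members carry in kidney at 6 h, 20 in liver at 6 h and 32, all blue, in heart vehicle rats.

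In liver at 6 h Oxaliplatin raised 20 of 40 members and lowered 0, against 6.72% of genes called higher, and the median over the members was 0.23. Bop1 and Nop16, 2 large subunit factors, had the smallest adjusted p. Bop1 had 8.54, 8.80 and 8.93 in vehicle livers against 8.96, 9.22 and 9.49, with no overlap (0.47 ± 0.07, 1.38-fold, adjusted p = 2.85e-06 by limma). Nop16 had 9.47, 9.62 and 9.82 against 9.80, 10.06 and 10.20, touching at the edges (0.41 ± 0.07). Ddx21 had 8.79, 8.96 and 9.13 against 9.22, 9.35 and 9.92, with no overlap (0.48 ± 0.12). The largest estimate was that of Rrs1, which recruits the 5S particle to the large subunit (0.49 ± 0.15), followed by Ebna1bp2 (0.40 ± 0.08), Noc2l (0.37 ± 0.07), Rrp12 (0.37 ± 0.07) and Polr1b (0.37 ± 0.10).

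By role, 2 of 3 polymerase I subunits, 2 of 4 box C/D proteins, 2 of 3 box H/ACA proteins, 5 of 12 small subunit factors, 1 of 3 PeBoW members, 6 of 12 large subunit factors and 2 of 3 abundant nucleolar proteins rose in liver at 6 h. Within water 12 members were called and within F68 4, and the count was 11 without the Oxaliplatin then water replicate 1 and 13 without the Oxaliplatin then F68 replicate 2. Macrophage markers were lower in 5 of 10 there (9.95 to 10.4 against 10.1 to 11.6) and proliferating cell markers in 0 of 10. Their part in the rise of the members was not tested.

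The liver at 1 h had 3 of 40 members higher and 0 lower, against 1.59% of genes called higher. These were Gnl3 (0.43 ± 0.12), Gar1 (0.38 ± 0.11) and Tsr1 (0.35 ± 0.10), which had also risen in kidney at 1 h. The count ran from 0 to 6 over the livers left out singly. It was 0 without D5W then water replicate 3, Oxaliplatin then water replicate 4 or D5W then F68 replicate 4, 1 without Oxaliplatin then F68 replicate 2 or D5W then water replicate 2, 5 without D5W then water replicate 1 and 6 without Oxaliplatin then water replicate 3.

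At 24 h the liver moved the other way. There 6 of 40 members were lower and 0 higher, against 4.69% of genes called lower, and the median was -0.12. Nop58 had 9.24, 9.74 and 10.13 in vehicle livers and 8.82, 9.19 and 9.46 after Oxaliplatin, with a partial overlap, a 1.47-fold fall (-0.56 ± 0.13). Ppan (-0.44 ± 0.12), Nip7 (-0.41 ± 0.11), Gar1 (-0.40 ± 0.11), Polr1c (-0.22 ± 0.07) and Nhp2 (-0.22 ± 0.07) fell too. In the same livers macrophage markers were lower in 8 of 10 (9.64 to 10.4 against 10.2 to 10.9) and proliferating cell markers in 7 of 10 (6.41 to 7.34 against 6.78 to 8.01), and their part in the fall was not tested. Within water 1 member was called and within F68 1.

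The heart gave few calls under Oxaliplatin. At 1 h 0 members were higher and 1, the PeBoW protein Wdr12, was lower (-0.16 ± 0.05), against 0.919% of genes called lower, and 17 members had an unadjusted p under 0.05. The call was lost, leaving 0, in 11 of the 16 fits that left out 1 heart, and the other 5 called 2 to 6, the most without the D5W then water replicate 1. Within water alone 7 members were lower and within F68 alone 0 were called. At 6 h 0 of 39 were called by limma, against 0.866% of genes in either direction, with 5 at an unadjusted p under 0.05. At 24 h 8 were higher and 1 lower, against 14.5% and 4.75% of all genes, led by Polr1a (0.31 ± 0.07), Pes1 (0.21 ± 0.07) and Nop16 (0.20 ± 0.04), with Dkc1 lower (-0.21 ± 0.08). Within F68 alone 0 members were called at 24 h, and Pes1 (-0.084), Dkc1 (0.039), Rrp9 (-0.036) and Mrto4 (-0.021) lay on the other side of 0 there, against 0.51, -0.46, 0.36 and 0.36 within water alone. In the D5W then water hearts of that time the β-actin probe sets of the 3′ and the 5′ end differed by a median of 0.75 (log2), against 0.24 to 0.47 in the other groups of that time, and the part of RNA quality was not tested. Markers of liver cells were lower after oxaliplatin in 3 of 7 tested in these hearts, and their mean log2 level was 6.00 to 7.27 and 6.41 to 7.37 in the D5W arrays then given water and F68, against 5.94 to 6.21 and 6.06 to 6.21 in the oxaliplatin arrays. Their part in the result was not tested either.

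**Figure D3:**
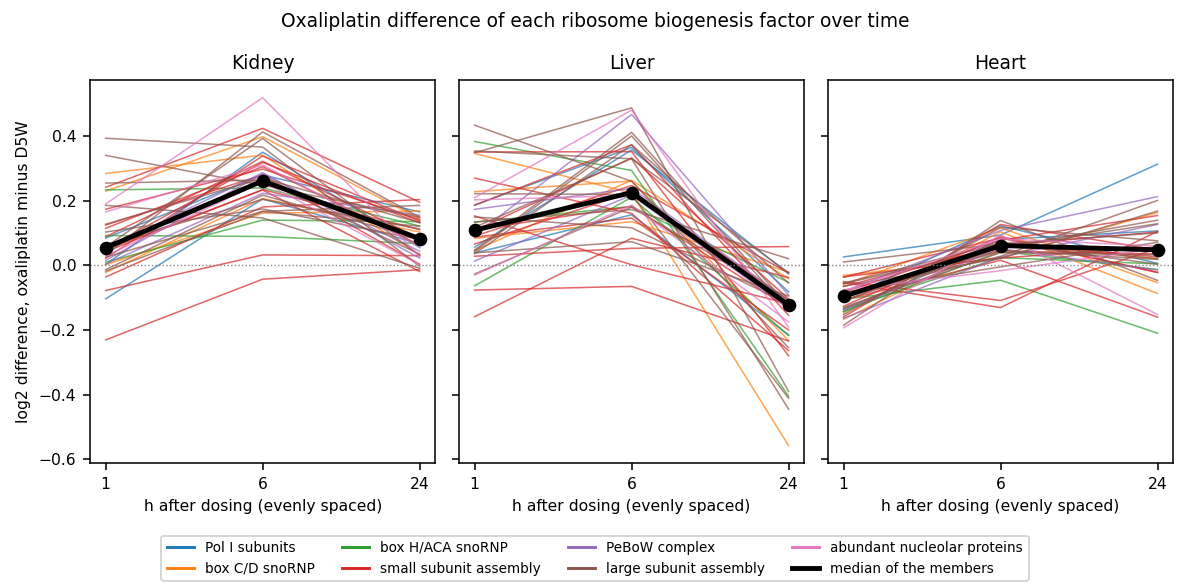
Log2 difference of Oxaliplatin minus D5W (y axis) for each member (thin lines, coloured by role) and their median (thick black line) at 1, 6 and 24 h (x axis, evenly spaced) in kidney, liver and heart. The median peaked at 6 h in kidney (0.26) and in liver (0.23), and it was -0.12 in liver at 24 h.

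The change of the Oxaliplatin difference between times was tested in its own contrasts. In kidney it was larger at 6 h than at 1 h for 13 members and smaller for 0 (5.25% of genes were larger), led by Noc2l (0.38 ± 0.06), Polr1b (0.35 ± 0.10), Nop2 (0.34 ± 0.06), Ddx21 (0.33 ± 0.11), Ltv1 (0.32 ± 0.08) and Polr1c (0.31 ± 0.06). From 6 to 24 h it dropped for 16 and grew for 0 (5.03% of genes dropped), led by Ddx21 (-0.49 ± 0.11), Gnl3 (-0.37 ± 0.09) and Nop2 (-0.36 ± 0.06). The count of 13 was 8 without the 6 h Oxaliplatin then F68 replicate 1. In liver 2 members, Bop1 (0.37 ± 0.10) and Nop16 (0.36 ± 0.09), were larger at 6 h than at 1 h (0.886% of genes). Between 6 and 24 h 27 of the 40 liver members dropped and 0 grew (7.28% of genes dropped), with Rrs1 at -0.88 ± 0.21, Nop58 at -0.78 ± 0.18, Ppan at -0.77 ± 0.16, Gar1 at -0.70 ± 0.15 and Bop1 at -0.56 ± 0.10. In heart 2 members, Gnl3 and Nop2, were larger at 6 h than at 1 h (0.822% of genes) and Nop56 was smaller at 24 h than at 6 h (2.55%). These counts of 2, 2 and 1 turned on single arrays and ran from 0 to 4, 0 to 9 and 1 to 2 as arrays were left out. The 24 h arrays carried another array code prefix than the 1 and 6 h arrays in every tissue, but each difference was taken within 1 time.

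Tissues were set against each other in a joint model over 39 members and 10598 genes, in which arrays of different tissues counted as separate samples because the labels name no rat. At 1 h kidney and liver differed for 0 members (1.64% of genes in either direction), while 4 were more raised in kidney than in heart (1.58%) and 9 more in liver than in heart (1.57%). At 6 h, 2 members were less raised in kidney than in liver (2.47%), namely Nop16 (-0.25 ± 0.07) and Bop1 (-0.24 ± 0.08). At that time 7 were more raised in kidney than in heart (2.18%), among them Ddx21 (0.42 ± 0.12), Tsr1 (0.38 ± 0.10) and Noc2l (0.36 ± 0.08), and 8 more in liver than in heart (2.93%), among them Rrs1 (0.49 ± 0.14) and Bop1 (0.42 ± 0.08). At 24 h 16 members were higher in kidney than in liver (6.78%), with Nop58 at 0.59 ± 0.12 and Gar1 at 0.53 ± 0.11. At that time 18 were lower in liver than in heart (13.8%), with Nop58 at -0.58 ± 0.12. The heart side of the 24 h contrasts includes the D5W then water hearts. Their median β-actin 3′ minus 5′ difference was 0.75, against 0.45 in the D5W then F68 hearts, and its part was not tested. Kidney and heart then differed for 1 member, Dkc1 (0.28 ± 0.09, 1.73% of genes), whose heart difference at 24 h was -0.46 within water, the arm with the high β-actin gap, and 0.039 within F68.

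Neighbouring genes of the pathway were read from a list of 107 other ribosome biogenesis genes. In kidney at 6 h 65 of 101 tested were higher (12.7% of all genes) and 1 lower, with Ftsj3 (0.40 ± 0.04), Rrp8 (0.39 ± 0.08) and Noc4l (0.37 ± 0.06) the most raised and the polymerase I factor Taf1b lower (-0.24 ± 0.07). At 1 h in kidney 11 were higher and 1 lower (4.45% and 4.96% of all genes), led by Taf1d (0.48 ± 0.05), Polr1g (0.39 ± 0.06) and Utp3 (0.38 ± 0.05), with Mdn1 lower. In liver at 6 h 32 of 97 were higher (6.72% of all genes) and 0 lower, led by Pno1 (0.64 ± 0.10), Rrp8 (0.48 ± 0.09) and Polr1e (0.46 ± 0.15). At 24 h in liver 5 were lower and 0 higher, led by Ddx52 (-0.52 ± 0.12). With 4.69% of all genes lower there, that count was near the share over all genes. The cytosolic ribosomal proteins, the structural parts of the finished ribosome, had 1 of 43 higher and 2 lower in kidney at 6 h. In liver at 6 h 3 of 42 were higher, near the 6.72% of all genes. Myc rose in kidney at 1 h (1.92 ± 0.13) but had no call at 6 h (0.26 ± 0.13) or 24 h (0.18 ± 0.13), and in liver its differences were 0.29 ± 0.27, -0.40 ± 0.27 and -0.07 ± 0.27 at 1, 6 and 24 h, none called. Of the p53 targets, Cdkn1a (1.04 ± 0.10), Mdm2 (0.75 ± 0.06) and Ccng1 (0.50 ± 0.07) rose in kidney at 6 h. Rpl5 and Rpl11, ribosomal proteins that bind Mdm2 when ribosome assembly fails, were not called there (0.05 ± 0.02 and 0.00 ± 0.02). These are RNA levels, and binding of the proteins to Mdm2 was not measured.

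**Figure D4:**
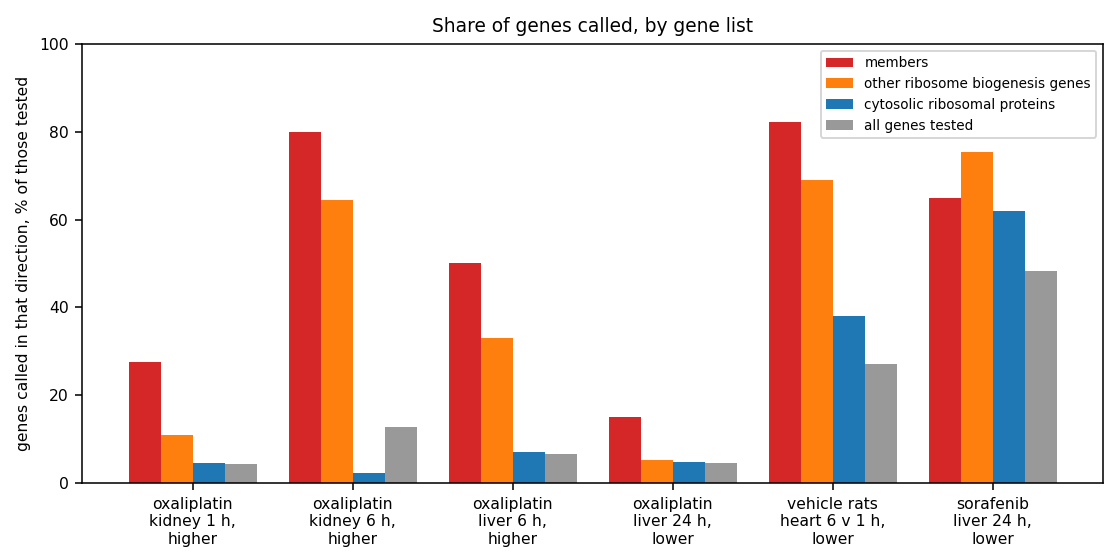
Percent of tested genes called in the stated direction (y axis, 0 to 100) in 6 comparisons (x axis) for the ribosome biogenesis factors (red), 107 other ribosome biogenesis genes (orange), cytosolic ribosomal proteins (blue) and all genes tested (grey). In kidney at 6 h 32 of 40 members and 65 of 101 other biogenesis genes were higher, against 1 of 43 ribosomal proteins and 12.7% of all genes.

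Adding a kinase inhibitor to Oxaliplatin called 0 members in any of the 18 comparisons with Oxaliplatin alone (2 drugs, 3 tissues, 3 times), where 0 to 7.57% of all genes were called. At an unadjusted p under 0.05, 11 members passed in kidney at 1 h for Sunitinib and 10 in liver at 6 h for Sorafenib. Leaving out 1 array changed the count in 3 of the 18: it was 5, 4 and 4 in kidney at 1 h without the Sunitinib replicates 2, 3 and 4, 1 and 2 in heart at 6 h without the Sorafenib replicate 1 and the F68 replicate 4, and 3, 2 and 1 in liver at 24 h without the Sorafenib replicates 1 and 3 and the F68 replicate 3. Sunitinib replicate 1 of the 1 h kidneys, the array with the lowest hybridization controls, stayed in each of those 3 kidney fits. Its member mean was 9.54, against 9.25 to 9.28 in the other replicates. Its median level over all genes was shifted too, at 9.25 against 8.90 to 8.95. All 8 arrays of that comparison were left out in turn, and without Sunitinib replicate 1 the count stayed at 0. The part of that array in the 11 members at an unadjusted p under 0.05 was not tested. The combinations were also set against the double vehicle, sharing those vehicle rats with the comparisons above. In kidney at 6 h Oxaliplatin then Sunitinib raised 36 of 40 members (9.98% of genes), led by Nop58 (0.67 ± 0.07), Nop2 (0.58 ± 0.06) and Polr1b (0.58 ± 0.10). Oxaliplatin then Sorafenib raised 16 (5.26% of genes), led by Nop58 (0.37 ± 0.07), Nop56 (0.34 ± 0.09) and Noc2l (0.34 ± 0.06). In liver at 6 h Oxaliplatin then Sunitinib raised 13 (2.7% of genes), led by Ddx21 (0.64 ± 0.17), and Oxaliplatin then Sorafenib 0 (1.45% of genes in either direction, 3 members at an unadjusted p under 0.05). At 24 h in liver Oxaliplatin then Sorafenib lowered 21 (27.4% of genes), led by Nop58 (-0.63 ± 0.18) and Ddx21 (-0.55 ± 0.17).

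**Figure D5:**
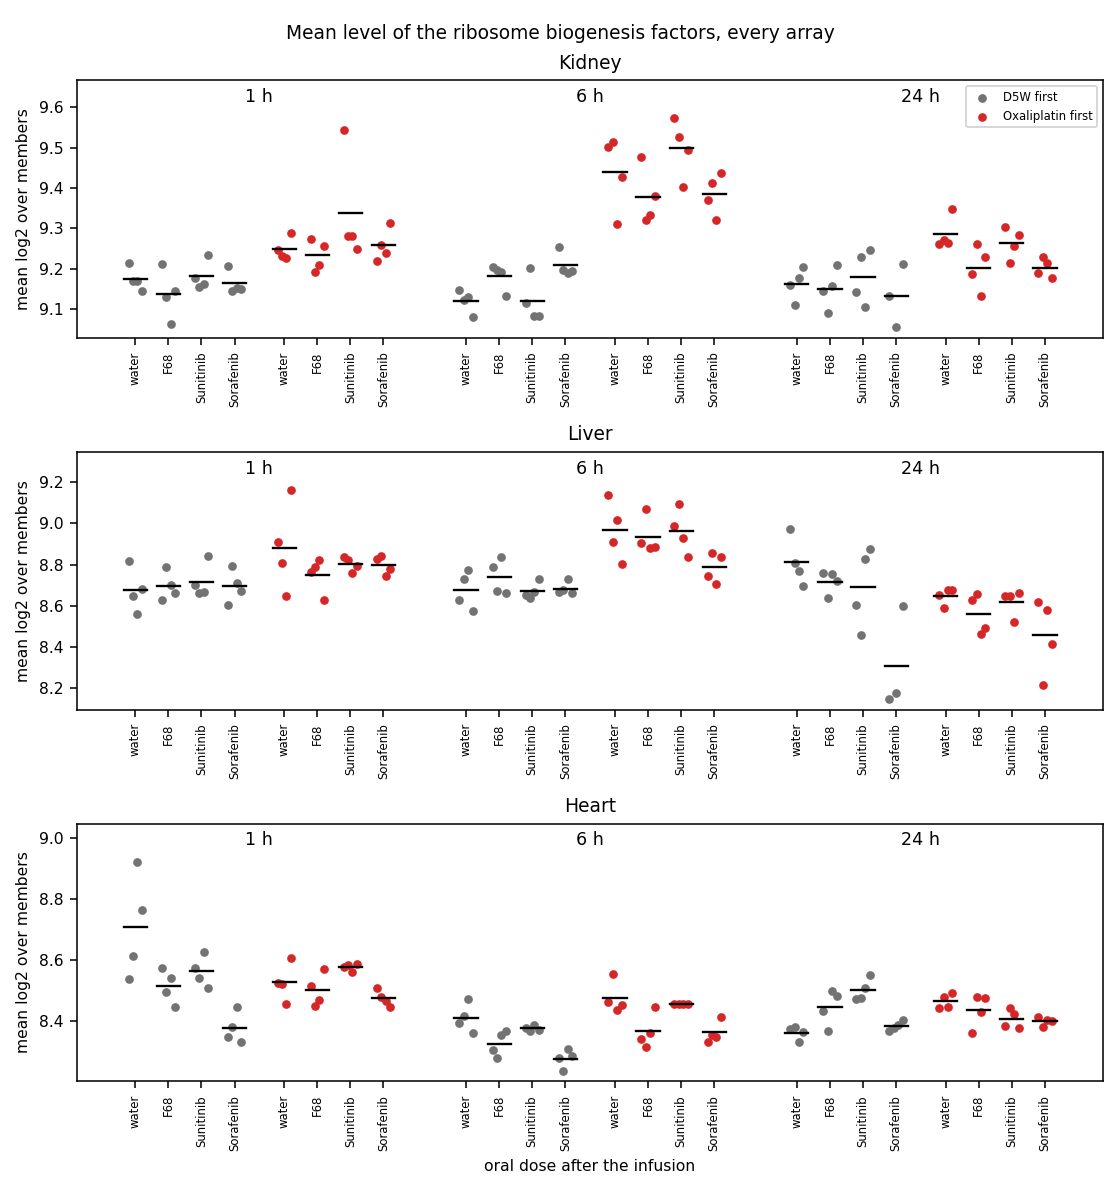
Mean log2 level over the tested members (y axis, not starting at 0) in every kept array, by tissue (panels), time, infusion (grey D5W, red Oxaliplatin) and oral dose (x axis), with a bar at each group's mean. In kidney at 6 h the 4 groups given Oxaliplatin had means of 9.38 to 9.50, against 9.12 to 9.21 in the 4 groups given D5W.

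Without Oxaliplatin, neither kinase inhibitor gave calls among the members in kidney at any time, nor in liver at 1 or 6 h, nor did Sunitinib in liver at 24 h. Each of these 11 comparisons had 0 members called by limma, 0 to 0.964% of genes called, and 0 to 6 members at an unadjusted p under 0.05. The exception was Sorafenib in liver at 24 h, where 26 of 40 members were lower and 3 higher, against 48.2% and 19.1% of all genes. The member median was -0.44 and that of all genes -0.24. Rrs1 was 7.07, 7.09 and 7.52 in the 3 Sorafenib livers and 8.13 to 8.80 in the 4 F68 livers, without overlap (-1.15 ± 0.23, 2.22-fold lower). Nip7, which joins pre-60S particles (-1.01 ± 0.16), the small subunit factor Wdr75 (-0.91 ± 0.15) and Nop58 (-0.90 ± 0.19) fell most after it. All 3 abundant nucleolar proteins and 7 of 12 small subunit factors fell. Rrp9 (0.35 ± 0.10), Dkc1 (0.28 ± 0.08) and Nop2 (0.24 ± 0.10) rose.

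The 3 Sorafenib livers did not move alike. Their mean level over the members was 8.15, 8.18 and 8.60, against 8.64 to 8.76 in the F68 livers. Macrophage markers were lower in 10 of 10 (9.49 to 9.82 against 10.2 to 10.9) and endothelial markers in 4 of 7. Heart markers were higher in 2 of 3 and kidney markers in 4 of 6, and liver markers in 1 of 10. The mean log2 level of the heart markers was 5.494 to 5.833 in the Sorafenib livers and 5.380 to 5.497 in the F68 livers, and that of the kidney markers 6.523 to 6.883 and 6.435 to 6.525, so that both ranges overlapped slightly. The β-actin 3′ minus 5′ difference was 0.641 to 0.762 in the Sorafenib livers and 0.772 to 0.849 in the F68 livers, without overlap. The part of these markers and of RNA quality in the result was not tested. When all liver arrays were quantile normalized, the all-gene median moved from -0.24 to -0.05, the share of calls that were higher from 28.4% to 47.0%, and the member median from -0.44 to -0.13, with Wdr74 and Nob1 turning to 0.11 each. After Oxaliplatin the Sorafenib difference was less negative for 14 of 40 members, a share not far above the 28.7% of all genes higher in this contrast. Among the 14 were Rrs1 (1.11 ± 0.31), Nip7 (0.87 ± 0.22) and Nop58 (0.78 ± 0.26). That count was 0 when just the 4 groups compared set the spread. It was 22 without the Oxaliplatin then Sorafenib replicate 2, and 8 and 7 without the D5W then Sorafenib replicates 2 and 3.

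In heart the kinase inhibitors given without Oxaliplatin gave calls in both directions. Sunitinib lowered 11 of 39 members at 1 h (5.07% of genes lower), led by Nop14 (-0.48 ± 0.10), Gnl3 (-0.44 ± 0.08) and Nop58 (-0.41 ± 0.07), called 0 at 6 h (0.0% of genes, 1 member at an unadjusted p under 0.05), and raised 15 and lowered 2 at 24 h (19.0% and 6.42% of genes). At 24 h Mrto4, a large subunit stalk assembly factor, was 7.90 to 8.03 in the 4 water hearts and 8.39 to 8.51 in the 4 Sunitinib hearts, without overlap (0.47 ± 0.07), and Dkc1 fell (-0.44 ± 0.11). Sorafenib lowered 9 at 1 h (9.63% of genes), led by Ddx21 (-0.31 ± 0.09), raised 5 and lowered 11 at 6 h (18.2% and 23.7%), where Mrto4 was 7.74 to 7.84 against 8.15 to 8.37 (-0.45 ± 0.07), and lowered 1, Ddx21, at 24 h (5.65%). The Sorafenib shares at 6 h were thus close to those of all genes. The D5W then Sorafenib hearts at 6 h had a median β-actin 3′ minus 5′ difference of 0.68 and the D5W then water hearts at 24 h one of 0.75, against 0.24 to 0.47 in all other heart groups. At 1 h this difference also separated the groups compared, without overlap: it was 0.279 to 0.381 for Sunitinib and 0.458 to 0.528 for water, and 0.266 to 0.276 for Sorafenib and 0.294 to 0.424 for F68. The part of RNA quality in any of these results was not tested.

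These heart counts leaned on few arrays. With just the compared groups setting the spread, the 1 h counts were 0 for Sunitinib and 0 for Sorafenib. The Sunitinib count at 1 h was 19 without the D5W then water replicate 1, 3 and 5 without its replicates 3 and 4, and 7, 6 and 4 without the Sunitinib replicates 1, 2 and 4. Those 4 water hearts had a member mean of 8.71 (8.54 to 8.92). It was 8.56 in the Sunitinib hearts, 8.52 in the F68 hearts and 8.53 in the Oxaliplatin then water hearts. The same water hearts entered F68 against water, Oxaliplatin within water, the change of Sunitinib with Oxaliplatin and the vehicle rats over time. Those results at 1 h were thus not independent of each other. The Sorafenib count at 1 h was 14, 5 and 4 without the F68 replicates 4, 1 and 3, and 1 with quantile normalization within the tissue. The Sunitinib difference changed with Oxaliplatin for 8 members at 1 h, all upward (4.4% of genes), and for 1 upward and 11 downward at 24 h (2.88% and 11.5%), led by Pes1 (-0.58 ± 0.14). The Sorafenib difference changed for 2 upward at 1 h (4.75%) and for 6 upward and 4 downward at 6 h (12.4% and 4.74%), with Dkc1 at -0.49 ± 0.15. Of these counts the 8 was 16 and 13 without the D5W then water replicate 1 and the Oxaliplatin then water replicate 4, and 3 to 5 without any 1 of 9 other arrays, the 12 was 7 without the D5W then Sunitinib replicate 4, and the 2 ran from 0 to 4. The 24 h Sunitinib change includes the D5W then water hearts. Their median β-actin 3′ minus 5′ difference was 0.75, against 0.43 to 0.47 in the other groups of that contrast. The same hearts were the water side of Sunitinib, F68 and Oxaliplatin within water at 24 h. The 6 h Sorafenib change includes the D5W then Sorafenib hearts, with a median of 0.68, against 0.26 to 0.29 in its other groups. The part of RNA quality in these changes was not tested.

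F68 against water in rats given D5W, where vehicle and dosing day cannot be told apart, lowered 17 heart members at 1 h (5.83% of genes), led by Nip7 (-0.53 ± 0.10), Fbl (-0.40 ± 0.08) and Nop58 (-0.39 ± 0.07), with 7 called without the water replicate 3 and 0 when the 2 groups alone set the spread. The β-actin 3′ minus 5′ difference was 0.294 to 0.424 in those F68 hearts and 0.458 to 0.528 in the water hearts, without overlap, and its part was not tested. The same water hearts were the control of Sunitinib at 1 h. At 24 h F68 raised 7 and lowered 2 (12.1% and 4.7% of genes), and 5 were called without the water replicate 1. The β-actin difference was then 0.40 to 0.50 in the F68 hearts and 0.71 to 0.81 in the water hearts. These ranges did not overlap, and the part of RNA quality was not tested. Elsewhere F68 against water called 1 kidney member at 1 h, Nhp2 (-0.22 ± 0.07, 1.22% of genes lower), 2 in kidney at 6 h, Gnl3 (0.35 ± 0.09) and Wdr74 (0.20 ± 0.06, 2.29% of genes higher), and 0 in the other 5 comparisons (0.0 to 0.396% of genes). The kidney counts ran from 0 to 2 as single arrays were left out.

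In vehicle rats the members fell over time in heart. From 1 to 6 h 32 of 39 were lower and 0 higher, against 27.1% of all genes called lower, and the member median was -0.23 beside -0.05 over all genes. Nop58 had 9.84, 10.02 and 10.67 at 1 h and 9.36, 9.51 and 9.74 at 6 h, without overlap (-0.59 ± 0.05, 1.51-fold, adjusted p = 9.38e-14 by limma). Ddx21 had 8.53, 8.65 and 9.33 against 8.16, 8.33 and 8.40, without overlap (-0.45 ± 0.06), and Gnl3 (-0.49 ± 0.05), Gar1 (-0.41 ± 0.06) and Fbl (-0.40 ± 0.06) came next. All PeBoW members, all box H/ACA proteins, all 3 abundant nucleolar proteins, 10 of 12 large subunit factors and 9 of 11 small subunit factors fell, but 1 of 3 polymerase I subunits, namely Polr1c (-0.24 ± 0.05). The 7 not called were Polr1a, Polr1b, Rrp9, Ddx56, Rrp1b, Ddx10 and Dimt1. Of the other ribosome biogenesis genes 67 of 97 were lower and 2 higher, and of ribosomal proteins 16 of 42 were lower.

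The heart fall was seen in both dosing days, with 28 members called within water and 17 within F68. Macrophage markers were called in 0 of 10 in that comparison and proliferating cell markers were lower in 1 of 10. The β-actin 3′ minus 5′ difference had a median of 0.46 at 1 h and 0.32 at 6 h in the water hearts (0.458 to 0.528 at 1 h against 0.292 to 0.329 at 6 h, without overlap) and of 0.37 and 0.27 in the F68 hearts (0.294 to 0.424 against 0.205 to 0.330, overlapping), and its part in the result was not tested. Quantile normalization moved the share of all calls that were higher from 26.3% to 45.7% and called 28 members, all lower. From 1 to 24 h 27 members were lower in heart (32.6% of genes), with Ppan at -0.48 ± 0.06 and Rrp9 at -0.43 ± 0.06, but there time and array code prefix cannot be told apart. The median β-actin difference went from 0.46 at 1 h to 0.75 at 24 h in the water hearts. In the F68 hearts it went from 0.37 to 0.45, and its part was not tested. In kidney 2 members, Nop58 (-0.24 ± 0.05) and Gnl3 (-0.23 ± 0.06), were lower at 6 h (1.1% of genes lower) and 0 differed at 24 h (3.4% of genes in either direction, 6 members at an unadjusted p under 0.05). In liver 0 differed at 6 h (11.3%, 5 members at an unadjusted p under 0.05) and Rrs1 was higher at 24 h (0.53 ± 0.15, 1.14% of genes higher).

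Levels of the members in vehicle rats are given as a description, since probe sets differ in brightness and whether the tissues were normalized together was not given in the sources used here. Of 39 members read by the same probe set in all tissues, 34 were highest in kidney, 3 in liver and 2 in heart, but 62.1% of 13302 genes were highest in kidney too, where array medians were 7.32 to 7.81, against 6.63 to 6.78 in heart and liver. Ncl was 11.82 ± 0.07 in kidney, 11.03 ± 0.14 in heart and 10.98 ± 0.15 in liver (SD, n = 24 arrays), and the last pair lay within their spread. Noc2l was 8.37, 7.76 and 7.08 in kidney, liver and heart, Ddx21 was 9.38, 9.03 and 8.59, and Fbl was 10.28, 9.55 and 9.29.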

How the data were processed

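RNA of each tissue was labelled as biotinylated cRNA and hybridized to Affymetrix Rat Genome 230 2.0 arrays, and the deposited log2 values are the authors' RMA output (background correction, quantile normalization and summary per probe set; version not given in the sources used here). Whether the tissues were normalized together was not given either. Of 31099 probe sets, 20832 carried 1 gene symbol (14218 genes) and 436 carried several, which were not used. The brightest probe set stood for a gene, and genes above log2 6 on at least 4 arrays of a tissue were tested. Of 288 arrays 286 were kept, the others being the 24 h D5W then Sorafenib liver replicate 1 and the kidney of that group with the lowest Umod, replicate 4. Groups come from the labels, which describe replicates as separate rats. The array titles hold no replicate number, so replicates were numbered here in the order of the arrays within each group. limma 3.58.1 (R 4.3.3) fitted 1 mean for each of the 24 groups of a tissue, so that all groups shared the spread, with two-sided tests and Benjamini-Hochberg adjustment over all genes tested. The tissue model had 72 group means. The scripts were tested on simulated data. The number of arrays limits the precision.

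The members and gene lists were chosen with earlier results of these data known. All 42 members were accounted for. The text names up to 8 called members with the largest difference in a comparison, the calls by role, the 3 largest called of the other ribosome biogenesis genes, and values by array for the 4 members with the smallest adjusted p in kidney 6 h after Oxaliplatin. Members outside that rule, with values given for contrast, were chosen after their values were seen. Alternatives were no filter on dim genes, the mean of all probe sets, quantile normalization within the tissue, all arrays as labelled, the compared groups alone in the fit, water or F68 alone, and each array left out in turn. Promoter windows were from RefSeq (GRCr8).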

Additional observations from a re-analysis of the deposited data

Results flagged for a closer look

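Single arrays lay far from the other replicates of their group in 7 of 70 groups for the mean level of the ribosome biogenesis factors, by Dixon's test for 4 samples, where chance gives about 1 in 20. These were 9.21 in the kidney 1 h D5W then Sorafenib replicate 1, 9.54 in the kidney 1 h Oxaliplatin then Sunitinib replicate 1, which also had the lowest hybridization controls, 9.35 in the kidney 24 h Oxaliplatin then water replicate 4, 9.13 in the kidney 6 h D5W then F68 replicate 4, 9.26 in the kidney 6 h D5W then Sorafenib replicate 1, 8.52 in the liver 24 h Oxaliplatin then Sunitinib replicate 3 and 9.07 in the liver 6 h Oxaliplatin then F68 replicate 2. Of the 4 genes shown by array in kidney, 7 of 92 groups held such an array. Noc2l was 8.59 in the 6 h Oxaliplatin then F68 replicate 3. Nolc1 was 9.32 in the 6 h D5W then F68 replicate 2. Nop2 was 9.18 in the 24 h Oxaliplatin then F68 replicate 1, 9.12 in the 24 h Oxaliplatin then Sorafenib replicate 4 and 9.77 in the 6 h Oxaliplatin then Sorafenib replicate 4. Tsr1 was 9.90 in the 1 h D5W then Sorafenib replicate 2 and 9.96 in the 6 h Oxaliplatin then water replicate 3.

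Drug differences that themselves differed between times, tissues or infusions were found by limma contrasts. Percentages give the share of all genes called in the same direction. The Oxaliplatin difference changed from 1 to 6 h for 13 members in kidney (5.25%), 2 in liver (0.886%) and 2 in heart (0.822%). From 6 to 24 h it changed for 16 (5.03%), 27 (7.28%) and 1 (2.55%). Between tissues it differed at 1 h for 4 members (kidney and heart, 1.58%) and 9 (liver and heart, 1.57%). At 6 h it differed for 2 (kidney and liver, 2.47%), 7 (kidney and heart, 2.18%) and 8 (liver and heart, 2.93%). At 24 h the counts were 16 (6.78%), 1 (1.73%) and 18 (13.8%) in the same order. The Sunitinib difference changed with Oxaliplatin in heart for 8 members at 1 h (4.4%) and 12 at 24 h (2.88% upward, 11.5% downward). The Sorafenib difference changed for 2 in heart at 1 h (4.75%) and 10 in heart at 6 h (12.4% upward, 4.74% downward). In liver at 24 h it changed for 14 (28.7%), a share not far above that of all genes. The heart contrasts of Sunitinib at 24 h and Sorafenib at 6 h each include a group with a high median β-actin 3′ minus 5′ difference. These were the D5W then water hearts (0.75) and the D5W then Sorafenib hearts (0.68), and the part of RNA quality was not tested.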

How the results depend on the processing

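No paired analysis was possible because the labels give no rat or replicate number that links samples across groups. Of 1384 values of single members under settings other than leaving out an array, 1148 kept their direction and side of the threshold, 230 crossed the threshold with the same direction, and 6 turned. With 1 array left out, 2732 of 3035 values kept both, 303 crossed the threshold and 0 turned. Within F68 alone the Oxaliplatin differences in heart at 24 h turned for Pes1 (-0.084), Rrp9 (-0.036), Dkc1 (0.039) and Mrto4 (-0.021). Quantile normalization turned Wdr74 (0.11) and Nob1 (0.11) for Sorafenib in liver at 24 h. The differences between tissues and the combinations against double vehicle were computed in the reported setting alone.

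Counts of members called were within 1.5 times the reported count in 360 of 422 cases. The exceptions follow, and unless stated the cause was not tested. With water or F68 alone, which leaves fewer samples, the Oxaliplatin counts were 6 and 5 in kidney at 1 h, 17 in F68 in kidney at 6 h, 2 and 0 in kidney at 24 h, 0 in F68 in liver at 1 h, 12 and 4 in liver at 6 h, 1 and 1 in liver at 24 h, 7 and 0 in heart at 1 h and 0 in F68 in heart at 24 h. For vehicle rats at 6 h against 1 h they were 17 in heart and 0 in kidney, both in F68. These within-vehicle counts for vehicle rats were an alternative chosen after seeing the data.

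With only the compared groups in the fit, which leaves fewer samples to set the spread, the heart counts were 0 for Oxaliplatin, Sunitinib, Sorafenib and F68 at 1 h, 0 for Sorafenib at 24 h, 0 and 2 for the Oxaliplatin changes from 1 to 6 h and from 6 to 24 h, and 3, 0 and 6 for the changes with Oxaliplatin of Sunitinib at 1 h and of Sorafenib at 1 and 6 h. In kidney they were 1 for vehicle rats at both 6 h and 24 h and 0 for F68 at 1 and 6 h, and in liver 1 for the Oxaliplatin change from 1 to 6 h and 0 for the Sorafenib change at 24 h. Quantile normalization gave, in heart, 0 for Oxaliplatin at 1 h, 1 and 0 for Sorafenib at 1 and 24 h, 0 and 2 for the Oxaliplatin changes, 2 for Sorafenib after Oxaliplatin at 6 h, and 7 and 0 for the changes of Sunitinib at 24 h and Sorafenib at 1 h with Oxaliplatin. It gave 1 for kidney vehicle rats at 24 h, 5 and 5 for F68 in kidney at 1 and 6 h, and in liver 1 for vehicle rats at 6 h, 1 for the Oxaliplatin change from 1 to 6 h and 9 for the Sorafenib change at 24 h. The mean of all probe sets gave in heart 0 for Oxaliplatin at 1 h and Sorafenib at 24 h, 1 and 2 for the Oxaliplatin changes and 2 for Sorafenib after Oxaliplatin at both 1 and 6 h. No filter on dim genes gave in heart 0, 0 and 1 for Oxaliplatin at 1 h, Sorafenib at 24 h and the Oxaliplatin change from 1 to 6 h. With all arrays as labelled, kidney counts were 1 for Oxaliplatin at 24 h, 3 for Sorafenib at 24 h, 1 for vehicle rats at 6 h and 0 for F68 at 1 and 6 h, and liver counts were 0 for vehicle rats at 24 h and 1 for the Oxaliplatin change from 1 to 6 h. Without the array with the lowest hybridization controls kidney at 24 h had 11.

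Leaving out 1 array moved the counts over these ranges. In heart they were 0 to 6 for Oxaliplatin at 1 h, 3 to 19 for Sunitinib at 1 h, 4 to 14 and 0 to 1 for Sorafenib at 1 and 24 h, 0 to 9 and 1 to 2 for the Oxaliplatin changes, 0 to 2 for Sorafenib after Oxaliplatin at 6 h, 3 to 16 and 7 to 12 for the Sunitinib changes at 1 and 24 h, 0 to 4 for the Sorafenib change at 1 h, and 7 to 24 and 5 to 10 for F68 at 1 and 24 h. In kidney they were 2 to 7 for Oxaliplatin at 24 h, 8 to 17 for its change from 1 to 6 h, 1 to 2 and 0 to 1 for vehicle rats at 6 and 24 h, 0 to 5 for Sunitinib after Oxaliplatin at 1 h, and 0 to 2 for F68 at both 1 and 6 h. In liver they were 0 to 6 and 11 to 22 for Oxaliplatin at 1 and 6 h, 0 to 4 for its change from 1 to 6 h, 0 to 1 for Sunitinib at 24 h, 0 to 1 and 0 to 2 for vehicle rats at 6 and 24 h, 0 to 3 for Sorafenib after Oxaliplatin at 24 h, and 7 to 22 for the Sorafenib change at 24 h. The Oxaliplatin count in kidney at 6 h ran from 31 to 34 and that of heart vehicle rats at 6 h from 28 to 33.

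Quantile normalization also moved the split of all calls in other comparisons. For Oxaliplatin in liver at 24 h 201 higher and 545 lower became 279 and 410, for its change from 6 to 24 h in liver 216 and 846 became 295 and 546, for heart vehicle rats at 6 h 1096 and 3069 became 1379 and 1640, and for the Sorafenib change in liver at 24 h 3329 and 1113 became 1331 and 1501, where the median of all genes moved from 0.17 to 0.03.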
